A study of Mus musculus with 4 samples.

Results

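The circadian clock and output genes described here are 10 genes of the 24346 listed in each library, taken by their symbols. They are the activators Arntl and Npas2 (positive arm), the repressors Per1, Per2, Per3 and Cry1 (negative arm), the nuclear receptor genes Nr1d1 and Nr1d2 (REV-ERB receptors), and the output factors Dbp and Tef, which belong to the PAR bZIP family. All 10 were listed, 9 had a mean of at least 0.5 FPKM and entered the tests with 12299 genes in all, and Npas2 lay below that filter. FPKM is the number of fragments scaled to exon length and to the mapped fragments of the library, so levels of different genes are compared here per length.

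Expression was measured by RNA sequencing of whole liver from male C57BL/6 mice, aged 8 weeks when the diet began and housed under alternating light and dark. For 3 weeks all were fed the NASH diet, rich in fat, cholesterol and sucrose and with added bile salt. The 7KC group received it with 7-ketocholesterol (7KC), an oxidised form of cholesterol, and the control group without. There were 2 libraries per group, no mouse on ordinary chow was included, and neither the labels nor the methods give the hour at which each liver was taken or whether each library is 1 animal. If the libraries are not separate animals, the p-values measure technical spread. Depth was estimated at 13740000 to 17140000 mapped reads per library. Hepatocyte markers were abundant in all libraries, with a summed level of 41695 to 76358 FPKM over 9 listed genes.

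The clock of a liver cell is a loop of transcription and repression that takes about a day to run. ARNTL pairs with CLOCK or NPAS2, binds DNA at E-boxes and switches on the Per, Cry, Nr1d and Dbp genes. PER and CRY proteins then block that pair, while the REV-ERB receptors repress Arntl and Npas2 at elements that the activating ROR receptors also use. DBP and TEF carry the rhythm to metabolic genes through D-boxes. In mouse liver, Arntl and Npas2 RNA is therefore high around the turn from night to day, when Dbp and Nr1d1 RNA is low, and the reverse holds in the afternoon.

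Stretches of promoter are shown because they carry the elements through which these arms act on each other. RefSeq promoter windows on GRCm38.p6 (250 bases before to 50 after a start site) were given for 9 of the 10 members in 12 windows. They were searched on both strands for the E-box CACGTG, the D-box TTATGTAA and the ROR element TAGGTCA, and no match overlapped another. The E-box was present in 4 windows, of Per1, Cry1 and Tef (both windows), against 7.15% of 32851 windows of all genes. The D-box was present in the window of Per3 only (0.938% of all windows), and the ROR element in 1 window of Arntl only (2.61% of all windows). Per3 had D-box matches that begin at -205 and at -158 from the start site, and the former is shown. Capitals mark the match, and each line is written in the direction of its gene.
Per1: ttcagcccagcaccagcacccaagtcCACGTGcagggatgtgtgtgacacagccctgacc
Cry1: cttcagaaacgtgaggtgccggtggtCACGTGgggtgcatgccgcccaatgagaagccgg
Tef: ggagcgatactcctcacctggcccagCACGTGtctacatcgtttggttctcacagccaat
Per3: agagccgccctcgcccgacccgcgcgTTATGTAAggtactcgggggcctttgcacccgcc
Arntl: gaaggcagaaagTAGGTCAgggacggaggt

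The Per1 stretch is chr11:69098757-69098816 (plus strand), inside the gene but in no exon. The Cry1 stretch is chr10:85185081-85185140 (minus strand), outside any gene of GENCODE M21. The Tef stretch is chr15:81811250-81811309 (plus strand), in an intron of Tef. The Per3 stretch is chr4:151044837-151044896 (minus strand), upstream of Per3 and within Camta1. The Arntl stretch is chr7:113207529-113207558 (plus strand), in the untranslated part of the first exon. A match is a run of letters in these windows and no measurement of binding.

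The comparison asked whether adding 7KC to the NASH diet was accompanied by a difference in clock gene expression, and whether the arms of the clock differed in the same or in opposite directions. The REV-ERB and PAR bZIP genes were lower in both 7KC libraries than in both control libraries, with differences of -37.5% to -20.7% from the control mean. The Per genes, Cry1 and Arntl overlapped between the groups. None of the 9 tested members passed an adjusted p under 0.05 (limma, Benjamini-Hochberg over 12299 genes), while 0.48% of all tested genes passed as higher and 0.0244% as lower. At an unadjusted p under 0.05, 2 members were lower and none was higher, against 5.81% and 12% of all tested genes. The libraries did not overlap for 4 members, all lower in the 7KC group, against 27.4% of all tested genes lower and 25.1% higher without overlap. Under other scalings of the 4 libraries, 3 to 6 members were lower without overlap. The median log2 change over the 9 members was -0.30, beside -0.03 over all tested genes. Leaving out control replicate 1 gave a member median of -0.093 and leaving out control replicate 2 gave -0.46, beside -0.02 over all tested genes in both cases.

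**Figure D1:**
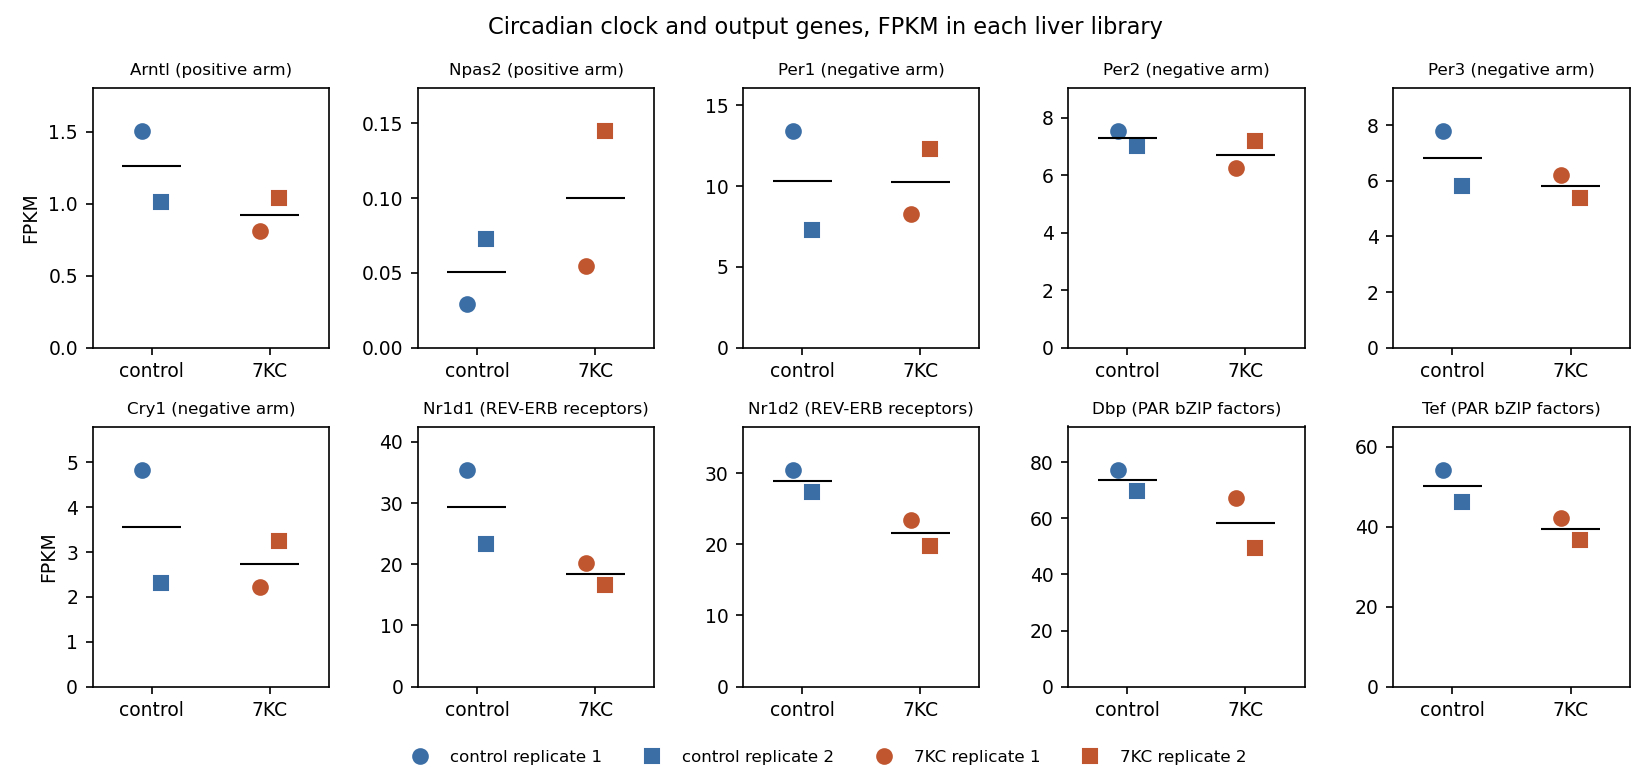
FPKM of the 10 members in each library (vertical axes, from 0), with the control libraries in blue and the 7KC libraries in orange. Circles are replicate 1, squares are replicate 2 and bars are group means. In Nr1d1, Nr1d2, Dbp and Tef both 7KC points lie below both control points, and in the other 6 genes the groups overlap.

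Arntl and Npas2, which form the positive arm here, were the least abundant members. Arntl (chromosome 7, 113207465 to 113314126, plus strand), also called Bmal1, encodes the partner shared by CLOCK and NPAS2. It was at 1.50 and 1.01 FPKM in control replicates 1 and 2, and at 0.806 and 1.04 FPKM in 7KC replicates 1 and 2. Control replicate 1 stood above the other 3 libraries, and 7KC replicate 2 lay between the control libraries. The log2 change was -0.30 (SE 0.22, 95% interval -0.86 to 0.26, limma adjusted p 0.525), and it ranged from -0.50 without control replicate 2 to -0.093 without control replicate 1. These levels correspond to between 30.8 and 71.6 reads per library on the longest coding transcript, where the coefficient of variation from counting is 11.8% to 18%.

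Npas2 (chromosome 1, 39193731 to 39363236, plus strand), the relative of Clock, was at 0.0292 and 0.0724 FPKM in the controls and at 0.0548 and 0.145 FPKM in the 7KC libraries. On its transcript of 4236 bases these are 2, 4, 3 and 8 reads. The exact Poisson intervals for counting error run from 0.242 to 7.22 reads for control replicate 1 and from 3.45 to 15.8 reads for 7KC replicate 2, so they overlap. A difference in Npas2 was not detectable at this depth.

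In the negative arm no member separated the groups. Per1 (chromosome 11, 69095217 to 69109960, plus strand), a repressor gene that glucocorticoids and other acute signals also induce, was at 13.4 and 7.26 FPKM in the controls and at 8.29 and 12.3 FPKM in the 7KC libraries. One library of each group was high and the other low, and the group means were close, at 10.3 ± 4.35 and 10.3 ± 2.82 FPKM (SD, n = 2 each). Its log2 change was 0.03 with a 95% interval of -0.80 to 0.85 (limma adjusted p 0.972).

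Cry1 (chromosome 10, 85131700 to 85185064, minus strand), the strongest repressor of the loop and the latest of the negative arm to peak, had the same arrangement. It was at 4.84 and 2.31 FPKM in the controls and at 2.22 and 3.26 FPKM in the 7KC libraries. Control replicate 1 was 2.10 times control replicate 2, a wider gap than the one between the group means (3.57 ± 1.79 and 2.74 ± 0.733 FPKM). The log2 change of -0.27 had an SE of 0.34 (limma adjusted p 0.711).

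Per2 (chromosome 1, 91415982 to 91459324, minus strand) was the steadiest member, at 7.54 and 7.01 FPKM in the controls and at 6.25 and 7.17 FPKM in the 7KC libraries. Its log2 change of -0.11 had a 95% interval of -0.44 to 0.21 (limma adjusted p 0.687). Per3 (chromosome 4, 151003652 to 151044665, minus strand), which is less needed for the rhythm itself, was at 7.79 and 5.81 FPKM and at 6.21 and 5.38 FPKM, with 7KC replicate 1 above control replicate 2. Its log2 change of -0.20 had an SE of 0.18 (limma adjusted p 0.584). With control replicate 1 left out, Per3 was at -0.0062.

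Both REV-ERB receptor genes were lower in the 7KC libraries without overlap. Nr1d1 (chromosome 11, 98767932 to 98775333, minus strand) encodes REV-ERBα, a heme-binding repressor of Arntl and of many lipid genes. It was at 35.4 and 23.3 FPKM in the controls and at 20.2 and 16.5 FPKM in the 7KC libraries. All 7KC values were below the control values, but control replicate 2 was nearer to 7KC replicate 1 than to its own replicate. The means were 29.4 ± 8.59 and 18.4 ± 2.57 FPKM (SD, n = 2 each), a log2 change of -0.64 (SE 0.23, 95% interval -1.21 to -0.07, unadjusted p 0.035 and limma adjusted p 0.242). Without control replicate 1 the log2 change was -0.34. Nr1d1 shares 263 of its 3077 exon bases with Thra on the opposite strand. Thra was at 2.17 to 3.72 FPKM, and whether reads were counted by strand is not given in the sources used here.

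Nr1d2 (chromosome 14, 18204054 to 18239127, minus strand), which encodes REV-ERBβ and acts alongside REV-ERBα, was at 30.5 and 27.3 FPKM in the controls and at 23.5 and 19.8 FPKM in the 7KC libraries. Here the replicates of each group lay closer together than the groups. The log2 change was -0.41 (SE 0.13, 95% interval -0.75 to -0.07, unadjusted p 0.0261 and limma adjusted p 0.218). The ratio of Nr1d2 to Nr1d1 FPKM was 0.859 in control replicate 1 and 1.16 to 1.19 in the other 3 libraries.

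The PAR bZIP factors were the most abundant members. Dbp (chromosome 7, 45705088 to 45710203, plus strand), a factor with one of the largest daily swings in liver, was at 77.3 and 69.8 FPKM in the controls and at 67.3 and 49.5 FPKM in the 7KC libraries. The groups did not overlap, but 7KC replicate 1 lay only just under control replicate 2. After rescaling the libraries to the same summed FPKM, the groups overlapped in Dbp. The log2 change was -0.35 (SE 0.18, 95% interval -0.79 to 0.10, limma adjusted p 0.369), and it was -0.13 without 7KC replicate 2. Dbp shares 539 of its 2993 exon bases with Sphk2 on the opposite strand, which was at 22.2 to 27 FPKM.

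Tef (chromosome 15, 81802421 to 81826863, plus strand), whose daily swing is smaller, was at 54.2 and 46.1 FPKM in the controls and at 42.3 and 36.6 FPKM in the 7KC libraries. Its log2 change was -0.34 (SE 0.14, 95% interval -0.69 to 0.01, limma adjusted p 0.289). The ratio of Tef to Dbp FPKM ranged from 0.628 to 0.741 over the 4 libraries, with both extremes in the 7KC group.

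By level, the order was Dbp, Tef, the 2 REV-ERB genes, Per1, Per2, Per3, Cry1, Arntl and Npas2 in both groups. In the control group the ranges of Nr1d1 and Nr1d2 overlapped, as did those of Per1, Per2 and Per3. In the 7KC group those of Nr1d1 and Nr1d2 overlapped, and the other neighbours were separate. Dbp RNA exceeded Arntl RNA in every library, by 51.4-fold and 68.9-fold in the control libraries and by 83.4-fold and 47.5-fold in the 7KC libraries. The highest and the lowest of these ratios were both in the 7KC group.

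**Figure D2:**
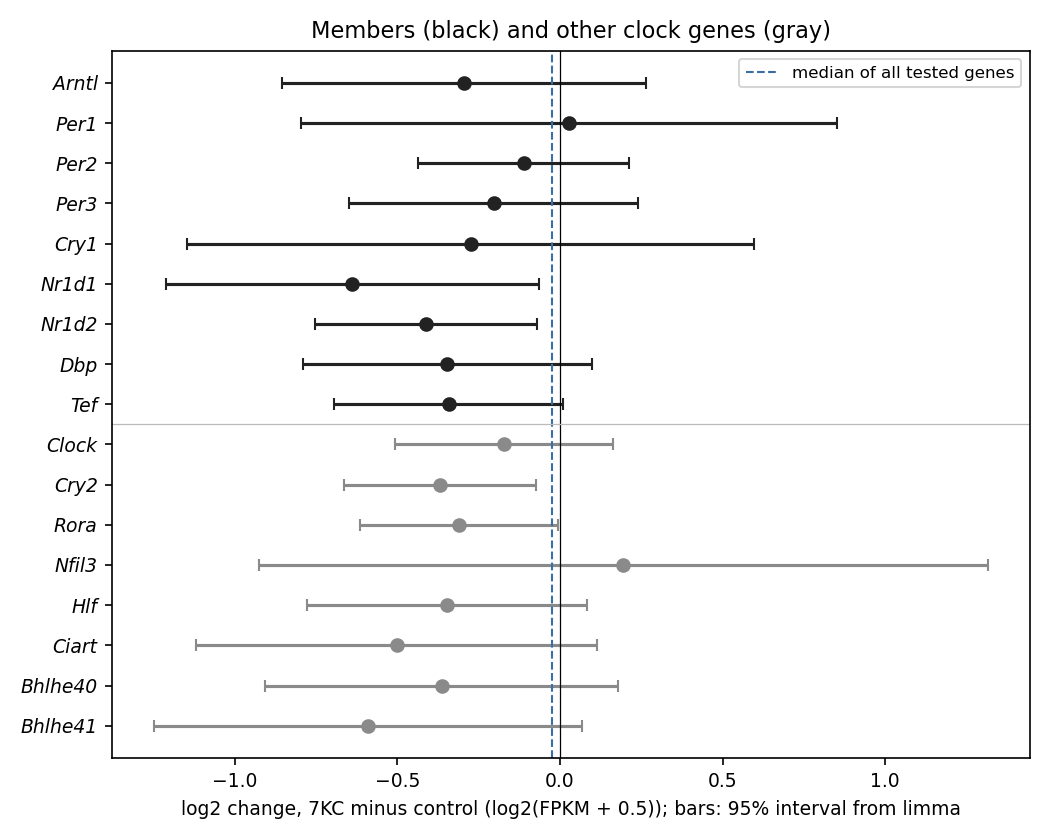
Log2 change of the 9 tested members (black) and of 8 other clock genes (gray), 7KC minus control on the log2(FPKM + 0.5) scale, with 95% intervals from limma. The dashed line is the median of all tested genes (-0.03), and Nr1d1 and Nr1d2 are the only members whose intervals lie wholly below 0.

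Other clock genes were then examined by role. Of 8 such genes 7 were lower in the 7KC group without overlap of the libraries and none passed the adjusted threshold. Their median log2 change was -0.36. Together with the members, 11 of 17 tested clock genes were lower without overlap and none higher, against 27.4% and 25.1% of all tested genes. The genes were listed with earlier results of these data known, so these counts are a description, on the deposited FPKM scale. Summed FPKM per library was 685028 and 671235 in the controls and 619828 and 557138 in the 7KC group. After rescaling to the same sum, the median log2 change of the 8 genes was -0.16, beside 0.16 over all tested genes. Clock, Rora, Hlf, Ciart, Bhlhe40 and Dbp then overlapped between the groups.

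Clock, the partner of ARNTL, was at 4.07 and 3.62 FPKM in the controls and at 3.32 and 3.39 FPKM in the 7KC libraries (log2 change -0.17, limma adjusted p 0.536). Cry2, the second cryptochrome, was at 12 and 12.4 FPKM against 9.88 and 8.85 FPKM (-0.37, adjusted p 0.207). Rora encodes a receptor that activates Arntl where the REV-ERB receptors repress it, and was at 8.78 and 8.75 FPKM against 6.55 and 7.41 FPKM (-0.31, adjusted p 0.273). This activator and both REV-ERB repressors were thus lower in the 7KC libraries without overlap.

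Hlf, the third PAR bZIP factor, was at 9.75 and 13.3 FPKM in the controls and at 8.62 and 9.05 FPKM in the 7KC libraries, a log2 change of -0.35 (limma adjusted p 0.356). Nfil3, the repressor that competes with these factors for D-boxes, did not follow them. It was at 12.7 and 4.52 FPKM in the controls and at 8.68 and 8.98 FPKM in the 7KC libraries, so both 7KC values lay between the control values (log2 change 0.20, adjusted p 0.853). A further 3 repressors of the ARNTL pair were lower without overlap: Ciart with a log2 change of -0.50, Bhlhe40 with -0.36 and Bhlhe41 with -0.59 (adjusted p 0.353, 0.426 and 0.319). In Bhlhe40 the 7KC libraries were far apart, at 29.6 and 45.2 FPKM, and the latter lay just below the 45.4 FPKM of control replicate 2. Without control replicate 1 the log2 change of Ciart was -0.15, without 7KC replicate 1 that of Bhlhe40 was -0.063, and without control replicate 2 those of Hlf and Bhlhe41 were -0.14 and -0.31.

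The genes were also grouped by the part of the day at which they are known to peak in mouse liver. The 4 tested genes with a peak around the turn from night to day (Arntl, Clock, Nfil3 and Cry1) had a median log2 change of -0.22, with 1 lower without overlap and 3 overlapping. The 11 genes with a peak between midday and early night (Nr1d1, Nr1d2, Dbp, Tef, Hlf, Per1, Per2, Per3, Ciart, Bhlhe41 and Usp2) had a median of -0.35, with 7 lower without overlap and 4 overlapping. Over all tested genes 27.4% were lower without overlap. Without control replicate 1 the medians were 0.048 and -0.23, of opposite sign, and without control replicate 2 they were -0.50 and -0.42. Without 7KC replicate 1 they were -0.10 and -0.44, and without 7KC replicate 2 they were -0.30 and -0.24. The order of the groups thus depended on single libraries. A difference in sampling time between the libraries was not tested, since no hour is given.

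The spread between replicates of the same group was wide for a subset of these genes. In the control group replicate 1 exceeded replicate 2 by 0.93 in Cry1 and by 0.84 in Per1 on the log2(FPKM + 0.5) scale, whereas the median gap of all tested genes was 0.16 in size. Gaps at least as large as in Cry1 were found in 2.72% of tested genes, and as in Per1 in 3.31%. In the 7KC group the order was opposite, with replicate 1 below replicate 2 by 0.47 in Cry1 and by 0.54 in Per1 (11.2% and 7.92% of tested genes had as large a gap). Arntl had the same pattern at a smaller size, with differences of 0.41 and -0.24.

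Dbp, Tef, Nr1d1, Nr1d2 and Per3 were instead higher in replicate 1 of both groups, by 0.15 to 0.60 in the control group and by 0.19 to 0.44 in the 7KC group. Clock-controlled genes with wide gaps, Usp2 (a deubiquitinase gene) and Ccrn4l (nocturnin), were picked after their values were seen. Usp2 was at 23.3 and 8.83 FPKM in the controls and at 14.9 and 19.3 FPKM in the 7KC libraries. Ccrn4l was at 17.9 and 4.65 FPKM against 7.05 and 11.5 FPKM. Both, like Per1 and Cry1, were highest in control replicate 1, lowest in control replicate 2 or 7KC replicate 1, and intermediate in 7KC replicate 2. Replicate numbers have no order, and the source of these gaps was not tested.

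**Figure D3:**
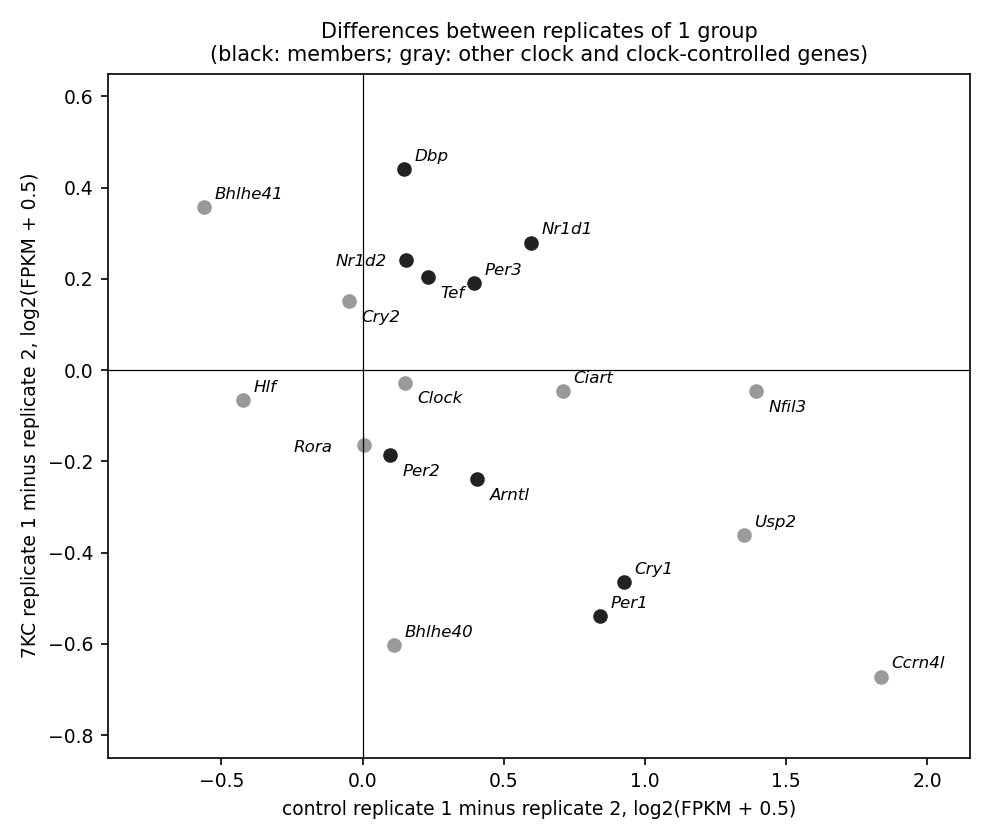
Difference between replicate 1 and replicate 2 within the control group (horizontal axis) and within the 7KC group (vertical axis) on the log2(FPKM + 0.5) scale, for the 9 tested members (black) and other clock or clock-controlled genes (gray). Per1, Cry1, Usp2 and Ccrn4l lie at the lower right, and Dbp, Tef, Nr1d1, Nr1d2 and Per3 lie in the upper right.

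The genes whose profile over the 4 libraries lay nearest to that of Arntl were Crls1, Itga7, St3gal5, Rdh11 and Dpagt1, at Euclidean distances of 0.0167 to 0.0697 between centred log2(FPKM + 0.5) values. Those nearest to Dbp were Mtfp1, Oaz1, Fkbp2 and 2310061I04Rik, at 0.0249 to 0.0374. Among the tested genes, Nr1d2 and Tef ranked 219 and 350 by nearness to Dbp, and Cry1 and Per1 ranked 9798 and 10238. With 4 libraries such nearness is only a description.

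Of 17 genes that the clock drives in liver, 6 (35.3%) were lower and 4 (23.5%) higher in the 7KC group without overlap, shares near the 27.4% and 25.1% of all tested genes. Their median log2 change was -0.30, and -0.02 without control replicate 1. With all 4 libraries and group as the only term, none passed the adjusted threshold. Of those without overlap, Rgs16, Klf10 and Elovl3 had the largest log2 changes in size. Rgs16, a regulator of G protein signaling that rises before feeding, was at 150 and 201 FPKM in the controls and at 45.5 and 68.7 FPKM in the 7KC libraries, which is -1.63 in log2 (SE 0.25, limma adjusted p 0.0606). Elovl3, a fatty acid elongase gene, was at 29.7 and 76.9 FPKM against 22.7 and 17.3 FPKM (-1.25, adjusted p 0.244). Klf10, a zinc finger factor under clock control, was at 10.2 and 39.1 FPKM against 7.59 and 7.64 FPKM (-1.34, adjusted p 0.319).

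Without control replicate 1, the log2 changes of Rgs16, Klf10 and Elovl3 were -1.84, -2.29 and -1.93. Over the 4 fits that each left out 1 library, the log2 change of Rgs16 ranged from -1.92 to -1.33. That of Klf10 ranged from -2.29 to -0.40 and that of Elovl3 from -1.93 to -0.57. Without control replicate 2, the log2 changes of Klf10 and Elovl3 were -0.40 and -0.57. With a block of crossed replicate numbers, chosen after seeing the data, the limma adjusted p of Rgs16 was 0.037. Those of Klf10 and Elovl3 were 0.195 and 0.0637. Of 10 kinase and degradation genes that act on clock proteins, 3 (30%, near the 27.4% of all tested genes) were lower without overlap and none was higher, with a median log2 change of -0.06. Those 3 were Usp9x (-0.23), Sirt1 (-0.11) and Csnk1d (-0.10), with limma adjusted p-values of 0.423, 0.709 and 0.66.

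Signals from the body that reach the liver clock were examined through their target genes. Of 8 tested genes that respond to body temperature, 5 were lower and 1 was higher without overlap, against 27.4% and 25.1% of all tested genes. The higher gene was Cirbp (log2 change 0.18), and Rbm3 overlapped (0.15). Both are cold-induced, unlike the heat shock chaperone genes of the list, so the counts have no single direction. The heat shock chaperone gene Hsph1 was at 27.9 and 26.9 FPKM in the controls and at 16.8 and 12.3 FPKM in the 7KC libraries (log2 change -0.90, SE 0.17, limma adjusted p 0.0848). Hspa8 and Hsp90aa1, further chaperones, had log2 changes of -0.48 and -0.45 (adjusted p 0.228 and 0.151).

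Of 12 genes that glucocorticoids induce, a list that includes Per1, 5 were lower and 2 higher without overlap. These are 41.7% and 16.7%, against 27.4% and 25.1% of all tested genes. Zbtb16, a zinc finger factor, was at 10.5 and 12 FPKM against 3.66 and 5.57 FPKM (log2 change -1.22, limma adjusted p 0.0704). Fkbp5, a co-chaperone of the receptor, was at 59 and 45.8 FPKM against 25.6 and 34.2 FPKM (-0.80, adjusted p 0.134). Lcn2, which inflammation also induces, was at 405 and 267 FPKM against 566 and 979 FPKM (1.18, adjusted p 0.175). Per1 did not share the lower level of Zbtb16 and Fkbp5 in both 7KC libraries.

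Of 12 tested genes of feeding and fasting, 5 (41.7%, against 27.4% of all tested genes) were lower without overlap. None was higher (against 25.1%), and the median log2 change was -0.34. The fasting genes G6pc, which encodes the last enzyme of glucose production, and Igfbp1 had log2 changes of -1.05 and -0.79, and the lipogenic gene Fasn had -0.69 (limma adjusted p 0.109, 0.147 and 0.243). Genes of fasting and of feeding were thus both among the lower ones. With all 4 libraries and group as the only term, no gene of these 3 lists passed the adjusted threshold. Without control replicate 1 the log2 change of Fasn was -1.04. A block of crossed replicate numbers, chosen after seeing the data, gave lower limma adjusted p-values. They were 0.0488 for Hsph1, 0.04 for Zbtb16, 0.0348 for Fkbp5, 0.0302 for Lcn2 and 0.0415 for G6pc.

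**Figure D4:**
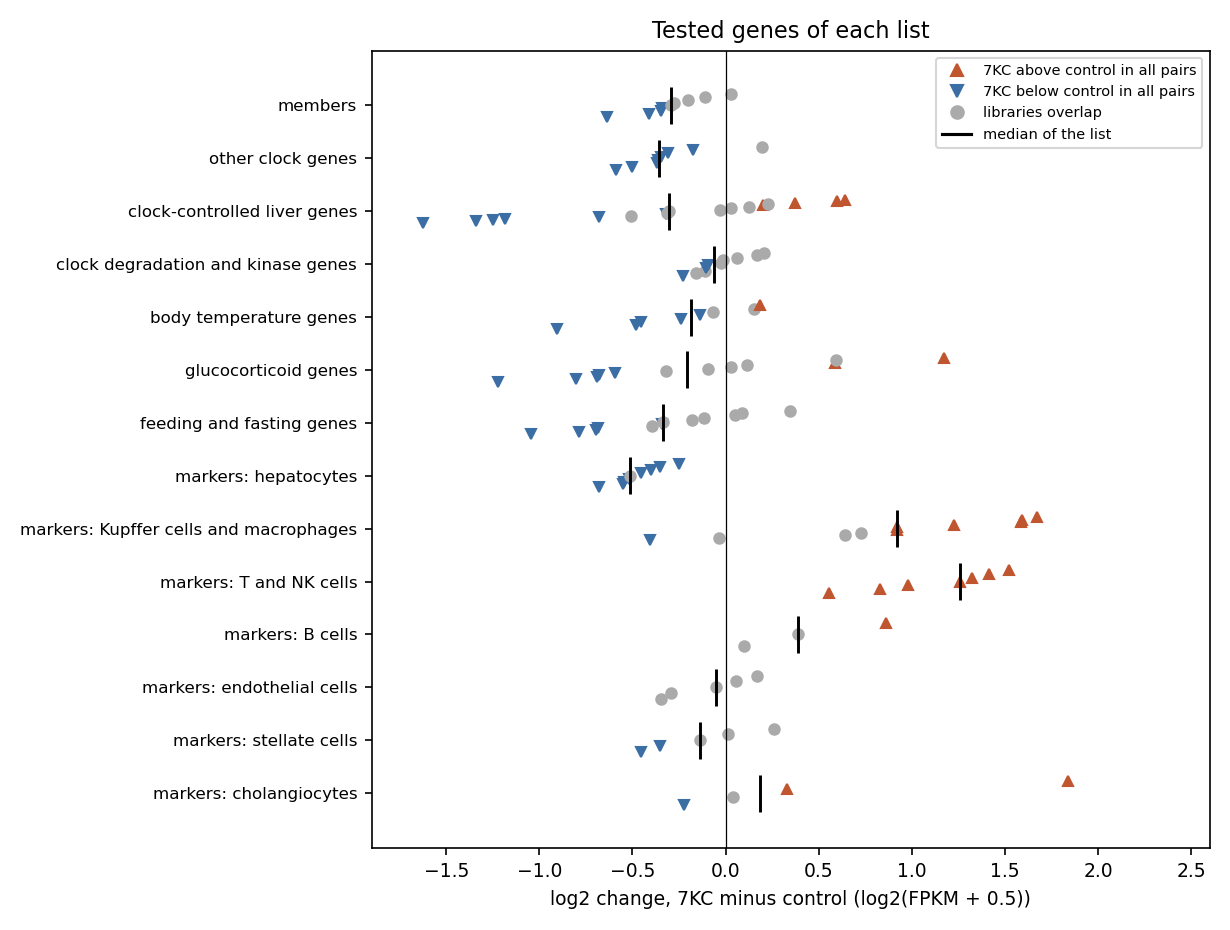
Log2 change, 7KC minus control on the log2(FPKM + 0.5) scale, of each tested gene of the members, of related lists and of cell type markers. Triangles are genes whose libraries did not overlap between the groups (up for higher, down for lower in the 7KC group), gray circles overlap, and black bars are list medians, from -0.52 for hepatocyte markers to 1.26 for T and NK cell markers.

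Markers of cell types moved beside the clock genes. Of 9 tested hepatocyte markers 8 were lower without overlap in the 7KC group. Their median log2 change was -0.52, beside -0.30 for the members. With quantile normalization these medians were -0.21 and -0.30, in the opposite order, and with rescaling to the same sum -0.31 and -0.14. Over all tested genes 27.4% were lower and 25.1% higher without overlap. The summed level of the hepatocyte markers was 65522 to 76358 FPKM in the control group and 41695 to 55433 FPKM in the 7KC group. All 7 T and NK cell markers tested were higher without overlap (median log2 change 1.26, summed level 12.5 to 17.7 and 38.5 to 43.4 FPKM). Of 10 Kupffer cell and macrophage markers 6 were higher and 1 was lower without overlap (median 0.92, summed level 542 to 774 and 1288 to 2001 FPKM).

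Endothelial, stellate, B cell and cholangiocyte markers had median log2 changes of -0.05, -0.14, 0.39 and 0.19. The summed levels in the control and 7KC groups were 43.6 to 54.6 and 37.6 to 57.3 FPKM for endothelial, 158 to 162 and 115 to 141 FPKM for stellate, 2.26 to 6.68 and 6.40 to 6.41 FPKM for B cell, and 57.7 to 89.4 and 168 to 368 FPKM for cholangiocyte markers. Spp1, which macrophages also express, made up nearly all of the last sum, at 85.6 and 54.1 FPKM in the controls and at 165 and 363 FPKM in the 7KC libraries, while Krt19 was at 1.50 and 1.42 FPKM against 1.12 and 1.24 FPKM. No listed marker was at 0 in any library. In whole liver, fewer hepatocytes and less clock gene RNA per hepatocyte cannot be told apart, and the part of the cell makeup in the clock gene values was not tested.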

How the data were processed

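The authors made libraries from liver RNA with a stranded mRNA kit, read them from a single end, mapped the reads to mm10 with TopHat and Bowtie2, and deposited FPKM calculated with Cufflinks, 1 value per gene symbol and library. The submitters' processing notes name TopHat2 2.1.1, Bowtie2 2.2.8, SAMtools 0.1.18 and Cuffdiff 2.2.1, partly other versions than the methods. Annotation and strand, bias and multi-read settings are not given in the sources used here.

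The deposited FPKM values are not counts, so they were compared as log2(FPKM + 0.5) with limma 3.58.1 (R 4.3.3) with a variance trend, over 12299 genes whose mean reached 0.5 FPKM. Fold changes on this scale are understated for low genes. Group was the only term, with Benjamini-Hochberg adjustment and a threshold of 0.05. With 2 libraries against 2 there are 3 groupings, so an exact permutation test of 1 gene cannot go below p = 0.333 (two-sided). The script was tested on simulated data. Depth came from low values of single-transcript genes: 72.8% to 77% of values up to 10 reads lay within 0.1 of a whole read, against a median of 13.1% to 13.9% over other depths. Intervals for reads cover counting error only.

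Members and lists were chosen with earlier results of these data known. Beside the members, 8 clock genes were named by role, and the 3 genes with the largest absolute log2 change without overlap from each further list, plus the 5 genes nearest to Arntl and the 4 nearest to Dbp. Some genes that these rules would name or count are not reported here. Tf and Trac were not matched to a listed symbol. Ccrn4l was used for nocturnin. Coordinates are from GENCODE M21 on the same build. Alternatives covered pseudocounts, filters, scalings, the variance trend, replicate blocks and leaving out each library. Replicate numbers did not pair the libraries.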

Additional observations from a re-analysis of the deposited data

How the results depend on the processing

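No member passed the adjusted threshold under any of the 14 alternatives (0 higher and 0 lower), and the lowest adjusted p of a member was 0.146. Over all genes 59 were called higher and 3 lower, and under the alternatives 0 to 551 higher and 0 to 52 lower. The filters, the variance trend and the blocks, 5 alternatives, cannot move the log2 changes of the members here. Under the other 9, 77 of 81 log2 changes of members kept their direction. Rescaling to the same sum moved the median of all genes from -0.03 to 0.16 and reversed Per2 (0.082), Clock (0.0094), Sirt1 (0.072), Csnk1d (0.11) and Ccrn4l (0.17); the median of the negative arm was then 0.035 and that of the PAR bZIP factors -0.14. Relative to the shifted median, Per2 was at -0.077 and 8 of 9 members lay below it. Without 1 library at a time, the median of the negative arm ranged from -0.40 (control replicate 2) to 0.091 (control replicate 1), and was -0.03 without 7KC replicate 1. Log2 changes ranged from -0.39 to 0.45 for Per1, -0.74 to 0.19 for Cry1, -0.50 to 0.89 for Nfil3, -0.44 to 0.90 for Usp2 and -0.95 to 0.89 for Ccrn4l. Under the alternatives that kept all 4 libraries, members lower without overlap numbered 3 to 6, and 0 were higher. Rescaling to the same sum gave 3, with Dbp overlapping. With 1 library left out, members lower without overlap numbered 4 to 9 (9 without control replicate 2, 7 without 7KC replicate 2). Members higher then numbered 0 to 1 (Per1, without control replicate 1). A lone library overlaps less easily, so these counts are not comparable with 4. It was assumed to vary like the other group. The cause of these differences was not tested.

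Replicate numbers share no stated source, and the differences between replicates 1 and 2 of the groups had a correlation of -0.141 over genes, which are not independent replicates. With the replicate block, which cannot move a log2 change in this balanced design (Nr1d1 -0.64), limma called 0 members, and 0 genes passed in all (1851 at an unadjusted p under 0.05). With crossed numbers, an alternative chosen after seeing the data, the block gave 551 genes higher and 37 lower and again 0 members. At this depth Npas2 could not be compared.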
